A study of Mus musculus with 8 samples.

Results

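The genes described here are 10 channels, carriers and regulators of eccrine sweat secretion, namely Kcnn2, Kcnn4, Kcnma1, Aqp5, Cftr, Slc12a2, Ano1, Best2, Chrm3 and Foxa1. They were taken by gene symbol from the array annotation, which gave 14 probes on 23 spots out of 39429 probes on 43020 spots, or 10 of 29608 gene names. Kcnma1 had 4 probes, Aqp5 had 2, and the single Kcnn2 probe was printed on 10 spots. Forepaw palm skin was measured in wild-type C57BL/6J mice (WT) and in Adcyap1r1 -/- mice of the same strain (PAC1R KO), which lack the receptor that is selective for pituitary adenylate cyclase-activating polypeptide (PACAP). All were males aged 9 to 10 weeks and were anaesthetized. The centre of the footpad received 5 µL of 1e-07 mol/L PACAP in saline with 0.1% bovine serum albumin, or the same volume of that vehicle alone, and skin was taken 30 or 60 min later. This gave 4 comparisons of PACAP with vehicle, each hybridised on 2 arrays with the Cy3 and Cy5 dyes swapped. The 2 arrays held the same 2 RNA samples, so each comparison is 1 replicate and the gap between its arrays is technical. There were 6 mice per genotype, and which of them entered each RNA sample is not given in the sources used here. WT and KO arrays lay on different slides, which leaves genotype confounded with slide, and the 2 cannot be told apart.

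Eccrine sweat begins with acetylcholine, which acts on the muscarinic receptor Chrm3 of the secretory coil and raises calcium in the cell. Chloride taken up at the base by the cotransporter Slc12a2 (NKCC1) leaves at the lumen through anion channels such as Ano1, Best2 or Cftr, while potassium channels keep the driving force for it, and water follows through aquaporin 5. Foxa1 is a forkhead transcription factor that the secretory cells need in order to sweat, and in the mouse the eccrine glands lie in the footpads.

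A pair of probe sequences is shown, that of the Aqp5 probe whose level was lower in KO mice and that of the Cftr probe whose ratio followed the dye. The Aqp5 sequence lies at mm9 chr15:99424655-99424714 on the plus strand, 483 bases before the start of the other Aqp5 probe, and no letter of it is capitalised. The Cftr sequence lies at mm9 chr6:18270974-18271033 on the plus strand, and its capitals mark the stop codon.
Aqp5 probe 2: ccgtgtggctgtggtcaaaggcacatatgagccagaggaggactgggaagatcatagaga
Cftr: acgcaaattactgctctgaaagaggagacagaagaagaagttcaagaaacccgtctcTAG

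Upstream sequence is shown for 3 genes, Foxa1 and Ano1 because their levels had a similar order over the samples, and Aqp5 because both of its probes read lower after PACAP in all 4 comparisons. Each run is the 250 bases before the RefSeq transcription start (GRCm38.p6), in the direction of transcription. The Foxa1 run is chr12:57546112-57546361 and the Ano1 run chr7:144738574-144738823, both on the minus strand, and the Aqp5 run is chr15:99590778-99591027 on the plus strand. Capitals mark the forkhead core TGTTTAC or its reverse complement GTAAACA.
Foxa1: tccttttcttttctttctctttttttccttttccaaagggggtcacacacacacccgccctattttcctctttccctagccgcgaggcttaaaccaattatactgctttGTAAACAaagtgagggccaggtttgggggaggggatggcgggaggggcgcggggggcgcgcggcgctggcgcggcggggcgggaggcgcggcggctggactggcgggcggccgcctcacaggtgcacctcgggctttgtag
Ano1: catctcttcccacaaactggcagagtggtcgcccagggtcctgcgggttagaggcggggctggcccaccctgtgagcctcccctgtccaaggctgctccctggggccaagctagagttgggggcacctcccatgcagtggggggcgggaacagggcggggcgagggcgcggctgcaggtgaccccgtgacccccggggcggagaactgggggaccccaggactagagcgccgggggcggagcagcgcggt
Aqp5: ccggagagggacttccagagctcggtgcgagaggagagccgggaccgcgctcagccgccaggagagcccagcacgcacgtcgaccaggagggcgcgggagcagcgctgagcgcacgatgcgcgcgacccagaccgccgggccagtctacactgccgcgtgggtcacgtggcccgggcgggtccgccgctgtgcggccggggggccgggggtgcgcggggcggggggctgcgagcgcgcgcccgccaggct

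The same window was held for 7 of the 10 genes in the table used, with 1 start each. The cyclic AMP response element TGACGTCA, the site of the factor that protein kinase A activates, was in 0 of the 7 windows and in 1.55% of all 32851 windows of that length, read on both strands. Its core TGACG, which overlaps the full element, was also in 0 of 7, against 17.8% of all windows. The forkhead core was in the Foxa1 window alone of the 7, against 3.17% of all windows.

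The KO label could not be checked on these arrays. Signals well above background made up 78.6% to 94.5% of an array's spots in red (Cy5) and 54.0% to 65.3% in green (Cy3), and 0 spots were saturated. The single Adcyap1r1 probe read a log2 level of 8.28 and 8.67 in the WT vehicle samples and 7.98 and 8.56 in the KO vehicle samples. Whether it lies in the deleted part is not given in the sources used here, so it checks nothing, and KO below means the samples so labelled. Of 14 eccrine gland markers, such as Krt8, Krt18 and Cited4, 12 were above background in both channels on every array, and the developmental markers En1 and Edar were not.

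None of the secretion genes passed the thresholds on PACAP over vehicle. A probe was counted as changed where the mean of both arrays was at least 2.0-fold or at most 0.5-fold, if the arrays had 1 direction and each gave a Feature Extraction p below 0.01. In WT mice 0 of 14 probes passed at 30 min, where 0.35% of all probes did in either direction, and 0 of 14 at 60 min, where 0.692% did. In KO mice 0 of 14 passed at 30 min, against 0.708% of all probes, and 0 of 14 at 60 min, against 0.292%. These shares correspond to less than 1 probe in 14, so a count of 0 does not set these genes apart from the rest. The median log2 ratio over the 14 probes was 0.05 in WT mice at 30 min, -0.08 at 60 min, and -0.04 in KO mice at 60 min. It was -0.48 in KO mice at 30 min, where 12 of 14 probes had a mean below 0, against 41.6% of all probes, whose median was 0.0.

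**Figure D1:**
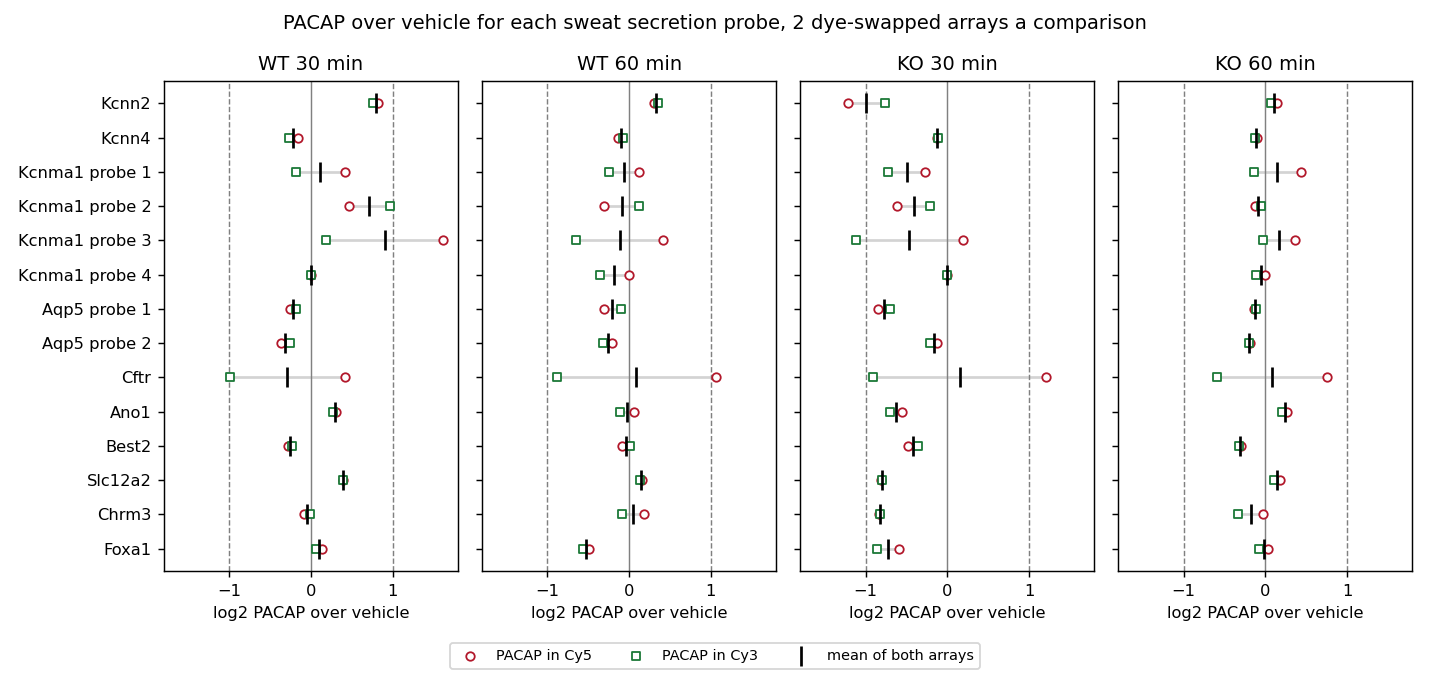
Log2 ratio of PACAP over vehicle (horizontal axis) for each of the 14 probes (vertical axis) in the 4 comparisons. Open circles are the arrays with PACAP in Cy5, open squares those with PACAP in Cy3, black bars the mean of both, and dashed lines 2.0-fold and 0.5-fold. No black bar lies beyond the dashed lines, most bars of KO mice at 30 min lie left of 0, and the Cftr arrays lie on opposite sides of 0 in every panel.

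Aqp5, the water channel of the secretory cells, read lower after PACAP than after vehicle on every array, by less than the fold threshold. With PACAP in Cy5 and in Cy3, probe 2 read 0.775-fold and 0.834-fold in WT mice at 30 min, with 0.865-fold and 0.801-fold at 60 min. In KO mice it read 0.920-fold and 0.864-fold at 30 min, with 0.875-fold and 0.870-fold at 60 min. All 8 arrays were below 1, from 0.775-fold to 0.865-fold in WT mice and from 0.864-fold to 0.920-fold in KO mice. Probe 1 also lay below 1 on all 8 arrays, with means of 0.858-fold and 0.868-fold in WT mice at 30 and 60 min and 0.917-fold in KO mice at 60 min. In KO mice at 30 min probe 1 read lower than probe 2, at 0.556-fold and 0.616-fold on its arrays, with Feature Extraction p of 0.000105 and 0.00109, although its mean of 0.585-fold did not reach the fold threshold. The 2 probes of the transcript were therefore apart in that comparison and close in the others. Kcnn4 also read below 1 on all 8 arrays. The share of all probes that did so was not computed, so the pattern is not shown to set Aqp5 apart.

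Across the 4 comparisons taken as replicates, the mean log2 ratio of Aqp5 was -0.33 for probe 1 (SE 0.13, n = 4, limma unadjusted p = 0.042) and -0.24 for probe 2 (SE 0.08, n = 4, limma unadjusted p = 0.028). Best2, a calcium-gated anion channel, stood beside them at -0.26 (SE 0.10, n = 4, limma unadjusted p = 0.037). These 3 were the probes with an unadjusted p below 0.05 among the 13 tested, Kcnma1 probe 4 being too dim for the fit, a level reached by 2.23% of all probes. Without KO mice at 30 min the mean of Aqp5 probe 1 shrank to -0.18 (limma unadjusted p = 0.051). Of the 3 probes only Best2 kept an unadjusted limma p below 0.05 without WT mice at 60 min, only Aqp5 probe 2 without KO mice at 30 min, and none without WT mice at 30 min or KO mice at 60 min. After Benjamini-Hochberg adjustment over 30351 probes the limma p was 1 for each of them, and 0 of 30351 probes passed (0.0%), while 678 had an unadjusted p below 0.05. In the simulated data of this size the same limma test found 196 of 200 probes with a log2 change of 3, and changes as small as those of Aqp5 were not simulated.

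Best2 read 0.821-fold and 0.851-fold on the WT arrays at 30 min, with 0.943-fold and 1.01-fold at 60 min. In KO mice it read 0.716-fold and 0.782-fold at 30 min, with 0.814-fold and 0.800-fold at 60 min. It was therefore below 1 on 7 of 8 arrays, and the exception was at 60 min in WT mice. No single array of Best2 had a Feature Extraction p below 0.01.

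Slc12a2 and Ano1, the chloride entry and the calcium-activated chloride exit, read above 1 in WT mice and below 1 in KO mice at 30 min. Slc12a2 read 1.31-fold on both WT arrays at 30 min, and 0.573-fold and 0.575-fold on the KO arrays. At 60 min it read 1.12-fold and 1.095-fold in WT mice, and 1.13-fold and 1.08-fold in KO mice. The low reading in KO mice at 30 min was thus nearly the same on both dyes, with Feature Extraction p of 0.000207 and 0.000226, and the readings at 60 min were all above 1.

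Ano1 read 1.24-fold and 1.21-fold on the WT arrays at 30 min, and 0.679-fold and 0.615-fold on the KO arrays, with Feature Extraction p of 0.00802 and 0.00105 in KO mice. At 60 min it read 1.04-fold and 0.922-fold in WT mice, and 1.21-fold and 1.16-fold in KO mice. Both genes passed the p threshold on both arrays in KO mice at 30 min and stayed short of the fold threshold, at means of 0.574-fold for Slc12a2 and 0.647-fold for Ano1. The difference between KO and WT mice in the PACAP effect, over both times, was -0.60 on the log2 scale for Slc12a2 (SE 0.34, n = 2 per genotype, limma adjusted p = 0.84) and -0.33 for Ano1 (SE 0.33, n = 2 per genotype, limma adjusted p = 0.84).

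Foxa1 was also below 1 in KO mice at 30 min, at 0.663-fold and 0.553-fold, with Feature Extraction p of 0.011 and 0.000581. In WT mice it read 1.099-fold and 1.04-fold at 30 min, with 0.713-fold and 0.675-fold at 60 min. In KO mice at 60 min it read 1.02-fold and 0.951-fold. Its mean of 0.694-fold at 60 min was the lowest of the 14 probes in WT mice, with Feature Extraction p of 0.0786 and 0.0554. With normexp and loess that mean was 0.904-fold and no longer the lowest, since Aqp5 probe 2 read 0.823-fold. The Foxa1 mean in KO mice at 30 min was then 0.797-fold.

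At 30 min 5 of the 14 probes were up on both WT arrays and down on both KO arrays, namely Slc12a2, Ano1, Foxa1, Kcnn2 and Kcnma1 probe 2. That pattern was shown by 15.2% of all probes, and the reverse, down in WT mice and up in KO mice, by 13.7% of all probes and by 0 of 14. At 60 min the pattern was shown by 0 of 14 probes and by 4.09% of all probes, and the reverse by 0 of 14 and by 4.91%.

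In KO mice at 30 min epidermal and muscle markers also read below 0 on the log2 scale, hair shaft and most sebaceous markers read above it, and their part in the ratios of the secretion genes was not tested. All 10 epidermal markers had a mean ratio below 0 on the log2 scale (median -0.66), and Krt10 and Krt1, the keratins of the suprabasal epidermis, passed the thresholds at 0.365-fold and 0.455-fold. Of 10 skeletal muscle markers 9 were below 0 (median -0.64), and muscle enolase Eno3 passed at 0.493-fold. All 8 smooth muscle and myoepithelium markers were below 0 (median -0.37), as were all 8 Schwann cell and nerve markers (median -0.19). The hair shaft markers went the other way, with 11 of 12 above 0 (median 1.35) and 10 past the thresholds, and 5 of 8 sebaceous markers were above 0 (median 0.30). Also above 0 were 7 of 8 mast cell markers (median 0.37) and 7 of 8 neutrophil markers (median 0.25), of which Retnlg passed at 2.91-fold. The hair shaft markers also read above 0 in WT mice at 60 min, all 12 of them (median 2.40), and 11 passed the thresholds. Of 9 hepatocyte markers 4 passed there in the lower direction, Alb, Ambp, Fgb and Hpx (0.219-fold to 0.333-fold), each too dim to be above background in both channels on every array. In that comparison Foxa1 read 0.694-fold, and the part of these markers in it was not tested. In WT mice at 30 min none of the 10 skeletal muscle markers was below 0 (median 0.80), and the epidermal median was 0.18. The summed level of the skeletal muscle markers was 17.01 on the log2 scale in the WT vehicle sample at 30 min and between 17.48 and 17.58 in the other vehicle samples. The PACAP samples held both extremes of this sum, 17.84 in WT and 16.97 in KO mice at 30 min, with 17.56 (WT) and 17.47 (KO) at 60 min. The summed level of the epidermal markers ranged from 18.43 to 18.92 over the vehicle samples and from 18.17 to 18.70 over the PACAP samples, with its highest and its lowest value in the 2 KO samples at 30 min. The 10 housekeeping genes had medians between -0.06 and 0.09 in all 4 comparisons. In bulk skin, fewer cells of a type and less RNA per cell cannot be told apart.

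Of the eccrine gland markers 9 of 14 were below 0 in KO mice at 30 min (median -0.30), 11 of 14 in WT mice at 30 min (median -0.16), 4 of 14 in WT mice at 60 min (median 0.08) and 9 of 14 in KO mice at 60 min (median -0.10). None of the 14 passed the thresholds in any comparison. The gland markers thus mostly lay on the other side of 0 from Slc12a2 and Ano1 in WT mice at 30 min.

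Among potassium channels, Kcnn2, the small-conductance calcium-activated channel, had ratios far from 1 at 30 min but was read near background. Its mean was 1.73-fold in WT mice at 30 min, from 1.77-fold with PACAP in Cy5 and 1.70-fold with PACAP in Cy3. In KO mice at 30 min it was 0.504-fold, from 0.431-fold and 0.589-fold, and at 60 min it was 1.26-fold in WT mice and 1.08-fold in KO mice. The 9 usable spots ranged from 1.13-fold to 2.57-fold in WT mice at 30 min and all 9 had the same direction on both arrays, while the 9 in KO mice at 30 min ranged from 0.439-fold to 0.596-fold, 8 of them with 1 direction. At 60 min 6 of 8 usable spots had 1 direction on both arrays in each genotype. Spots of 1 probe on 1 array share their RNA and are not replicates.

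The red channel held Kcnn2 above background on all 10 spots of every array. The green channel did so on 0 of 10 spots for PACAP in all 4 comparisons, and for vehicle on 5 of 10 in KO mice at 30 min, on 1 of 10 in KO mice at 60 min and on 0 of 10 in WT mice. Each Kcnn2 ratio therefore sets a measured signal against one that is mostly at background. The median Feature Extraction p over its spots was below 0.01 on no array, the smallest being 0.011, with PACAP in Cy5 in KO mice at 30 min, where 3 single spots were below 0.01. On the level scale, which adds an offset of 50 to the signals and so shrinks ratios of dim probes, Kcnn2 read 6.19 in vehicle and 6.33 in PACAP at 30 min in WT mice, and 6.29 and 6.16 in KO mice. With normexp and loess its 30 min ratio came to 1.101-fold (WT) and 0.914-fold (KO). The difference between KO and WT mice in its PACAP effect was -1.002 on the log2 scale (SE 0.39, n = 2 per genotype, limma unadjusted p = 0.042, adjusted p = 0.84). Its size rested on the KO comparisons, at -0.45 without KO mice at 30 min (limma unadjusted p = 0.18) and -1.55 without KO mice at 60 min (limma unadjusted p = 0.0060), and without WT mice at 30 min it was -0.77 (limma unadjusted p = 0.068). In the fit of all 4 comparisons it was the only one of 13 probes with an unadjusted p below 0.05 in that fit, a level reached by 3.2% of all probes, and 0 of 30351 probes passed after adjustment (0.0%), while 972 had an unadjusted p below 0.05. With normexp and loess the Kcnn2 difference shrank to -0.14 (SE 0.09, limma unadjusted p = 0.22, adjusted p = 0.85), and 0 of 13 secretion probes had an unadjusted p below 0.05.

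**Figure D2:**
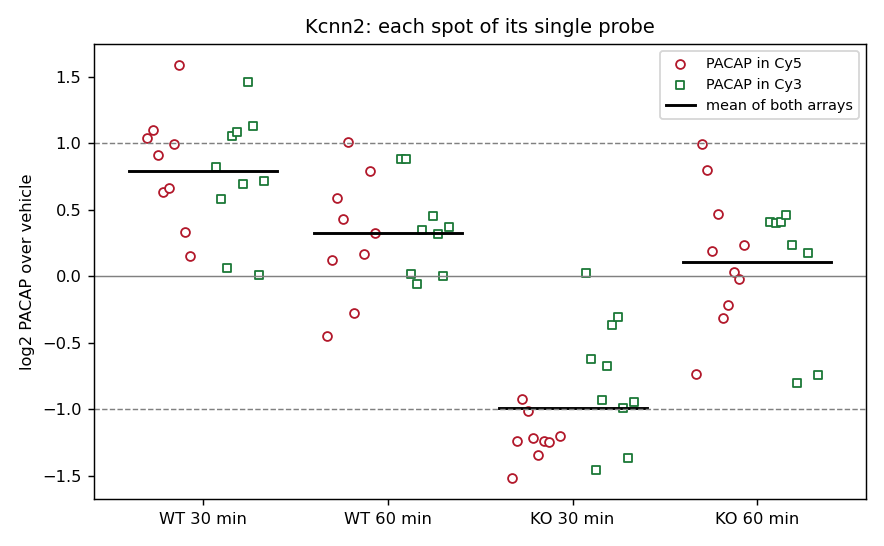
Log2 ratio of PACAP over vehicle (vertical axis) of each usable spot of the Kcnn2 probe in the 4 comparisons. Circles are the arrays with PACAP in Cy5, squares those with PACAP in Cy3, black lines the mean of both arrays, and dashed lines 2.0-fold and 0.5-fold. The SD of the log2 ratio between spots is 0.17 on the array of KO mice at 30 min with PACAP in Cy5 and between 0.35 and 0.53 on the other 7 arrays.

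Kcnma1, the large-conductance calcium-activated channel, gave no single answer over its 4 probes. In WT mice at 30 min the means were 1.08-fold, 1.64-fold and 1.87-fold for probes 1 to 3, and probe 4 was listed at a ratio of 0 on the log scale on both arrays. In KO mice at 30 min they were 0.709-fold, 0.753-fold and 0.725-fold, with probe 4 again at 0. Probe 3 rested on 1 array in both, since it read 3.07-fold and 1.14-fold in WT mice at 30 min, and 1.14-fold and 0.461-fold in KO mice at 30 min. It would have passed in WT mice at 30 min from the array with PACAP in Cy5 alone, and in KO mice at 30 min from the array with PACAP in Cy3 alone. With normexp and loess its mean in WT mice at 30 min was 1.15-fold.

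At 60 min the 4 Kcnma1 probes lay between 0.883-fold and 0.956-fold in WT mice and between 0.941-fold and 1.12-fold in KO mice. Probes 1 and 2 were above background in both channels on every array, and probes 3 and 4 were not. All 4 probes lie on chromosome 14 within a span that the files assign to different transcripts of the gene.

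Kcnn4, the intermediate-conductance calcium-activated potassium channel, read close to 1 throughout. It read 0.892-fold and 0.832-fold in WT mice at 30 min, with 0.912-fold and 0.948-fold at 60 min. In KO mice it read 0.913-fold and 0.923-fold at 30 min, with 0.935-fold and 0.916-fold at 60 min. All 8 arrays were slightly below 1, with a mean log2 ratio of -0.14 (SE 0.08, n = 4, limma unadjusted p = 0.14, adjusted p = 1).

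Cftr, the cyclic AMP-gated anion channel, had ratios that turned with the dye. The arrays with PACAP in Cy5 read 1.33-fold, 2.09-fold, 2.32-fold and 1.69-fold in WT mice at 30 and 60 min and in KO mice at 30 and 60 min. The arrays with PACAP in Cy3 read 0.502-fold, 0.542-fold, 0.535-fold and 0.666-fold in the same order. The ratio therefore followed the dye and not PACAP on all 8 arrays, and the means lay between 0.818-fold and 1.11-fold. Cftr was above background in the red channel alone on every array. From the arrays with PACAP in Cy5 alone the mean log2 ratio of Cftr would be 0.86 (limma adjusted p = 0.032), and from those with PACAP in Cy3 alone -0.84 (limma adjusted p = 0.013), against 0.01 (SE 0.11, n = 4, limma adjusted p = 1) from both.

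Chrm3, the muscarinic receptor that starts sweating, was also read near background. It read 0.562-fold and 0.567-fold in KO mice at 30 min, with Feature Extraction p of 0.016 and 0.020. In WT mice it read 0.940-fold and 0.989-fold at 30 min, with 1.14-fold and 0.941-fold at 60 min, and in KO mice 0.984-fold and 0.794-fold at 60 min. The reading in KO mice at 30 min had PACAP above background on 1 of 2 arrays and vehicle on 2 of 2, and was 0.888-fold with normexp and loess.

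Over all 14 probes the arrays of a comparison pointed in opposite directions for 2 probes in WT mice at 30 min, 7 in WT mice at 60 min, 2 in KO mice at 30 min and 4 in KO mice at 60 min. Among all probes that share was 31.1%, 43.7%, 31.8% and 47.4% in the same order.

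The levels of the RNA samples themselves, set on a common scale over the arrays, were compared between genotypes and between times. Levels of different probes are not compared with each other here, since each probe has its own response. Kcnn4 read 9.16 and 8.99 on the log2 scale in the WT vehicle and PACAP samples at 30 min, and 9.09 and 9.07 at 60 min. In KO mice it read 8.51 and 8.46 at 30 min, and 8.68 and 8.56 at 60 min. All 4 KO samples lay below all 4 WT samples. Of the 9 probes above background in both channels on every array, Kcnn4 alone had groups that did not overlap in this direction, which 9.01% of all 20278 such probes also showed. None of the 9 had all KO samples above all WT samples, against 6.93% of all such probes.

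The vehicle level of Kcnn4 was lower in KO than in WT mice by a log2 difference of -0.53 (SE 0.09, n = 2 per genotype, limma unadjusted p = 0.0054, adjusted p = 0.76). Aqp5 probe 2 was lower by a log2 difference of -0.52 (SE 0.18, n = 2 per genotype, limma unadjusted p = 0.048, adjusted p = 0.77). These were the 2 of 14 probes with an unadjusted p below 0.05, a level reached by 6.45% of all probes, and 0 of 37538 probes passed after adjustment (0.0%), while 2423 had an unadjusted p below 0.05. With all 8 RNA samples in 1 fit the adjusted p was 0.012 for both, at log2 differences of -0.53 and -0.46, and 3910 probes passed. That fit counts PACAP and vehicle samples of a genotype as separate samples although they share slide and arrays, and genotype lies in slide in both fits.

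Aqp5 probe 2 read 10.94 and 10.67 in the WT vehicle and PACAP samples at 30 min, and 11.26 and 10.97 at 60 min. In KO mice it read 10.42 and 10.26 at 30 min, and 10.75 and 10.57 at 60 min. Each KO sample was below its WT counterpart, and the highest KO sample was above the lowest WT sample. The other Aqp5 probe did not show that gap in vehicle, with 14.33 and 14.36 in WT mice and 14.22 and 14.19 in KO mice at 30 and 60 min, a log2 difference of -0.14 (SE 0.06, n = 2 per genotype, limma unadjusted p = 0.082, adjusted p = 0.79). Its lowest value was 13.49, in the KO sample given PACAP for 30 min.

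Eccrine gland markers lay in the same direction as that genotype difference. Of the 12 such markers above background throughout, 7 were lower in KO than in WT mice in all 4 matched samples and 0 were higher in all 4, against 3859 and 3010 of the 20278 probes above background. The median log2 difference of their vehicle levels was -0.21, against 0.00 over all those probes. Cited4 read 12.52 and 12.80 in the WT vehicle samples and 11.88 and 12.12 in the KO vehicle samples at 30 and 60 min, and Epcam read 10.60 and 10.28 against 9.90 and 9.96. Foxc1 went the other way in vehicle, at 8.88 and 8.61 in WT against 9.07 and 8.70 in KO mice. Krt18, Krt19, Cldn10 and Elf5 were also higher in KO than in WT vehicle samples at 60 min. The part of the gland markers in the levels of Kcnn4 and Aqp5 was not tested.

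**Figure D3:**
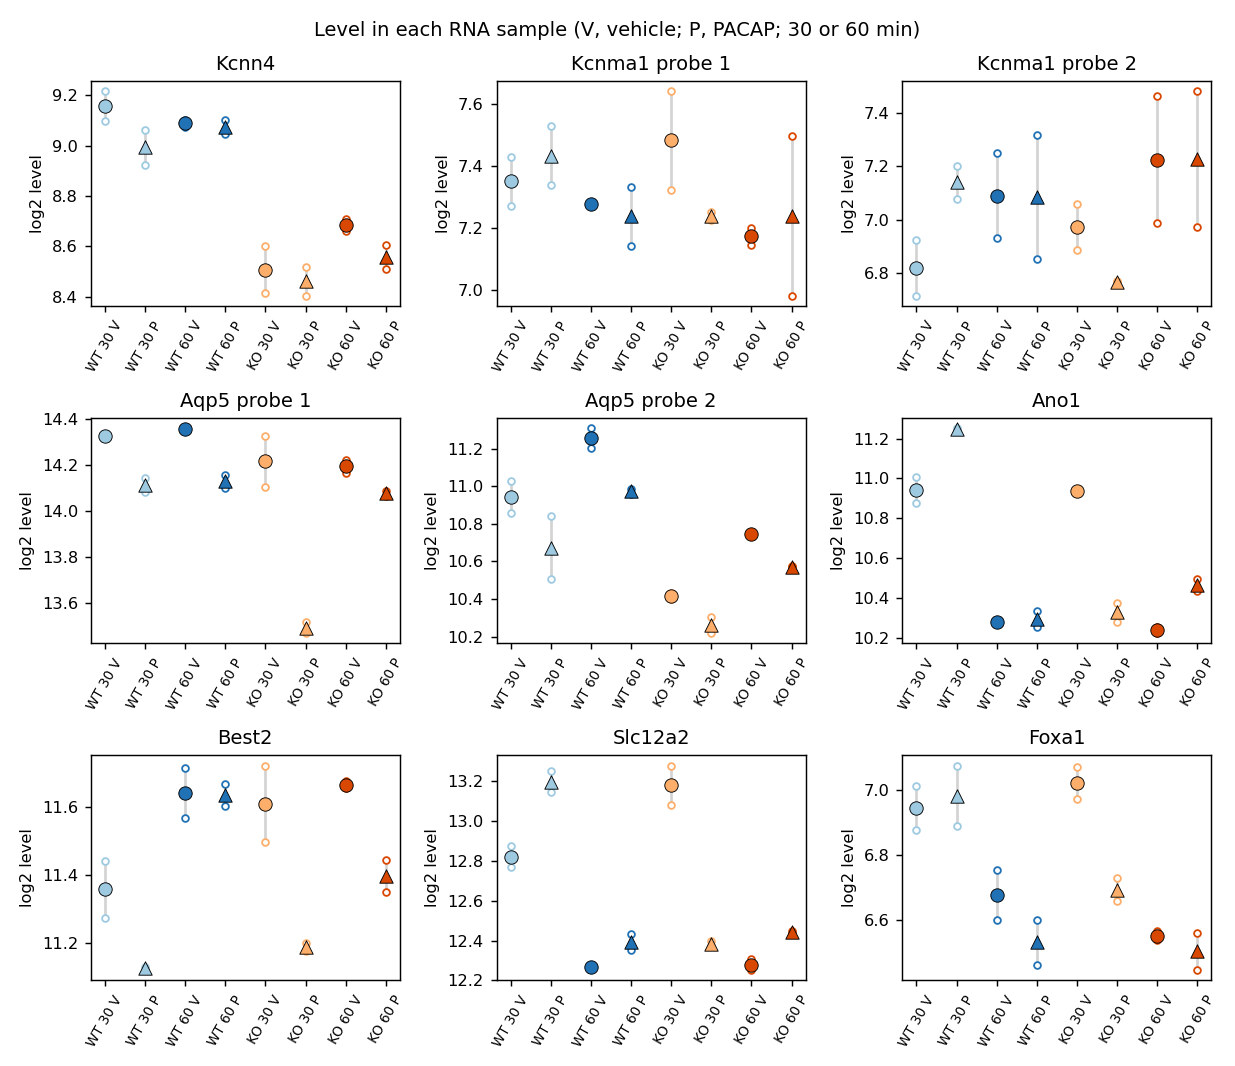
Log2 level (vertical axes, each panel with its own range) of the 9 probes above background in both channels on every array, in the 8 RNA samples (horizontal axes). Filled circles are vehicle and filled triangles PACAP samples, each the mean of 2 arrays, and small open circles are the arrays. The 4 KO samples of Kcnn4 sit between 8.46 and 8.68, below the WT samples between 8.99 and 9.16, while Ano1 is high in 3 of the 4 samples taken at 30 min.

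Ano1 and Slc12a2 differed between the times of sampling even without PACAP. Ano1 read 10.94 in the vehicle samples of both genotypes at 30 min, but 10.28 (WT) and 10.24 (KO) at 60 min. Among PACAP samples it read 11.25 (WT) and 10.33 (KO) at 30 min, and 10.30 (WT) and 10.47 (KO) at 60 min. The KO sample given PACAP for 30 min therefore lay among the 60 min samples, apart from the other 30 min samples. The vehicle level of Ano1 was lower at 60 than at 30 min by a log2 difference of -0.68 (SE 0.05, n = 2 per time, limma unadjusted p = 0.00028, adjusted p = 0.19).

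Slc12a2 read 12.82 in WT and 13.18 in KO vehicle samples at 30 min, and 12.27 and 12.28 at 60 min. Its PACAP samples read 13.20 in WT and 12.39 in KO mice at 30 min, and 12.39 and 12.44 at 60 min. The same 3 samples at 30 min were thus the high ones for Slc12a2. Its vehicle difference between 60 and 30 min was -0.73 (SE 0.14, n = 2 per time, limma unadjusted p = 0.0070, adjusted p = 0.20).

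Foxa1 shared that order, at 6.94 and 7.02 in the WT and KO vehicle samples at 30 min and 6.68 and 6.55 at 60 min, a log2 difference of -0.37 (SE 0.07, n = 2 per time, limma unadjusted p = 0.0084, adjusted p = 0.20). Kcnma1 probe 2 went the other way at 0.26 (SE 0.09, n = 2 per time, limma unadjusted p = 0.045, adjusted p = 0.29), a direction that turned to -0.032 without the arrays with PACAP in Cy3. With these, 4 of 14 probes had an unadjusted p below 0.05, a level reached by 16.8% of all probes, and 0 of 37538 passed after adjustment (0.0%), while 6291 had an unadjusted p below 0.05. With all 8 RNA samples in 1 fit, Foxa1 was called lower at 60 min (log2 difference -0.34, adjusted p = 0.023) and Aqp5 probe 2 higher (log2 difference 0.31, adjusted p = 0.0069), while Ano1 (adjusted p = 0.11) and Slc12a2 (adjusted p = 0.12) were not.

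Both vehicle samples at 60 min lay below both at 30 min for 4 of the 9 probes above background throughout, namely Ano1, Slc12a2, Foxa1 and Kcnma1 probe 1, which 29.0% of all such probes also showed. They lay above for 2 of 9, Best2 and Kcnma1 probe 2, against 20.5%. Best2 read 11.36 and 11.61 in the WT and KO vehicle samples at 30 min and 11.64 and 11.67 at 60 min. The vehicle level of Ano1 was thus lower at 60 than at 30 min in both genotypes, while that of Best2 was higher by 0.29 in WT mice. In KO mice the Best2 difference of 0.06 was smaller than the gap between the arrays of its 30 min vehicle sample, 11.72 and 11.50.

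Most epidermal markers and many transport genes were also lower in vehicle skin at 60 than at 30 min. In both genotypes this held for 7 of the 10 epidermal markers (median log2 difference -0.32), for 9 of 13 pumps, channels and carriers above background (median -0.26) and for 6 of 9 ductal reabsorption genes (median -0.30), against 38.0% of all probes above background and a median of -0.01. It held for 5 of 12 eccrine gland markers (median -0.14), for 1 of 10 housekeeping genes and for 0 of 10 skeletal muscle markers. The summed level of the sebaceous markers was higher at 60 min, at 13.97 against 13.44 in WT and 14.001 against 13.57 in KO vehicle samples. That of the hair shaft markers was 13.23 against 13.51 in WT and 15.63 against 12.78 in KO vehicle samples. Whether time after injection, the animals or the sampled skin moved with these genes cannot be told apart, since each time and genotype has 1 vehicle sample.

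Over the 8 RNA samples the levels of Ano1 and Slc12a2 had a Pearson r of 0.96, Ano1 and Foxa1 of 0.88, and Slc12a2 and Foxa1 of 0.90. Kcnma1 probe 1 joined them at 0.95 with Slc12a2, 0.93 with Foxa1 and 0.89 with Ano1, whereas Kcnma1 probe 2 had -0.17 with Ano1. With the skeletal muscle markers the r of Kcnma1 probe 2 ran from 0.31 (Mylpf) to 0.92 (Pvalb). Kcnn4 and Aqp5 probe 2 had an r of 0.87, the Aqp5 probes 0.73 with each other, and Ano1 and Best2 -0.52. These are descriptions over 8 samples in which the PACAP and vehicle samples of a comparison share their arrays and each genotype shares a slide.

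**Figure D4:**
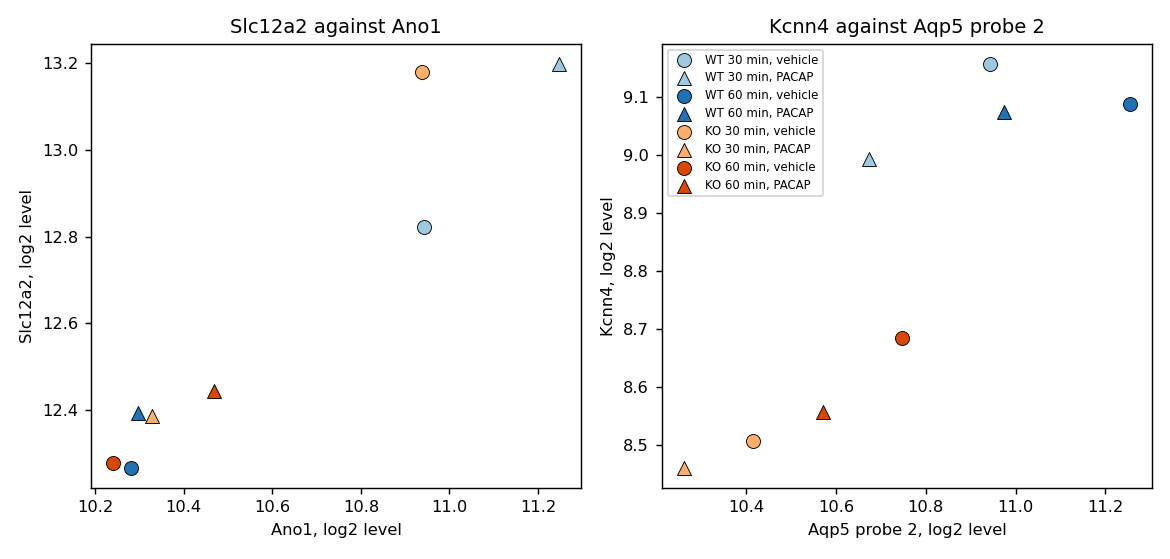
Log2 level of Slc12a2 against Ano1 (left) and of Kcnn4 against Aqp5 probe 2 (right) in the 8 RNA samples, circles for vehicle and triangles for PACAP, with colours for genotype and time. On the left 3 samples taken at 30 min stand at the upper right and the KO sample given PACAP for 30 min lies with the 60 min samples, and on the right the KO samples lie below the WT samples in Kcnn4.

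Among the 20278 probes above background throughout, the named genes most like Ano1 in level were Kank1 (r = 0.996) and Tenm4 (r = 0.994), and those most like Slc12a2 were Slc38a9 and Btbd3 (both r = 0.99). Those most like Foxa1 were Foxi1 (r = 0.98) and Pwwp2b (r = 0.98), and those most like Kcnn4 were Sec14l1 and Gstm7 (both r = 0.99). For Aqp5 probe 1 they were Lysmd1 (r = 0.98) and Inafm1 (r = 0.97), for Best2 Ovca2 and Rnf11 (both r = 0.96), and for Kcnma1 probe 1 Ap5z1 and Ercc2 (both r = 0.98). The names describe these 8 samples only.

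Other genes of the secretory pathway were counted by the same thresholds. Of 22 receptor and signalling genes, 18 pumps, channels and carriers, and 10 ductal reabsorption genes, 0 passed in either direction in any comparison. With 0.292% to 0.708% of all probes past the thresholds, less than 1 of these genes would pass at the same share, so the count of 0 does not set them apart. The receptor and signalling genes had medians of 0.19, -0.09, -0.37 and 0.06 on the log2 scale in WT mice at 30 and 60 min and in KO mice at 30 and 60 min. In KO mice at 30 min 16 of these 22 were below 0, as were 14 of the 18 pumps, channels and carriers (median -0.34) and 8 of the 10 ductal genes (median -0.33), against 41.6% of all probes (median 0.0). The direction of Slc12a2 and Ano1 at 30 min was shared by genes that work beside them. Itpr2, a calcium release channel of secretory cells, read 1.77-fold (WT) and 0.62-fold (KO) at 30 min. Gnas, the stimulatory G protein of the PACAP receptors, read 1.31-fold and 0.65-fold, and the PACAP and VIP receptor Vipr1 read 1.16-fold and 0.58-fold. These 3 genes were chosen after their values were seen.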

How the data were processed

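Total RNA of 8 skin samples was hybridised on 8 2-colour Agilent arrays. The authors' deposited files hold, per spot, a log10 ratio of red over green, a p-value of that ratio on 1 array, and background-corrected, LOWESS-normalized intensity with mean and local background signals. They were made with Feature Extraction, 12.0.3.1 in the file headers and 11.0.1.1 in the submitters' processing notes. The deposited series table holds log10 processed ratios, equal to the scanner files within 5e-10.

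Control and outlier spots were left out, ratios were oriented as PACAP over vehicle, and log2 values were averaged over spots and over both arrays. Levels came from normexp correction (offset 50), loess and Aquantile normalization in limma 3.58.1 (R 4.3.3), with lmFit, eBayes and Benjamini-Hochberg adjustment over all probes, called below 0.05. Ratio fits used 30351 probes with 1 or both channels above background on each array, and vehicle fits 37538 probes above it in 1 or more vehicle samples. Limma p-values measure only the spread between these samples. Feature Extraction p-values come from an error model of the ratio on 1 array and measure no spread between samples. Tested on simulated data with 200 probes changed by a log2 value of 3, the fits recovered 196 (mean effect), 126 (KO against WT effect), 172 (KO against WT vehicle) and 175 (60 against 30 min vehicle). Genes and lists were chosen with earlier results of these data known. Genes named beside the 10 were list members past the thresholds, Adcyap1r1, examples of lists picked after their values were seen, and, for the brightest probe of each gene, the 2 genes of most similar level. Alternatives changed normalization, filters, p rule, covariates, or left out arrays or samples.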

Additional observations from a re-analysis of the deposited data

Results flagged for a closer look

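At 30 min 5 probes read above 1 on both WT arrays and below 1 on both KO arrays, which is why they are listed here. The log2 ratio of PACAP over vehicle in KO minus that in WT mice was -1.78 for Kcnn2, -1.12 for Kcnma1 probe 2, -0.92 for Ano1, -1.19 for Slc12a2 and -0.82 for Foxa1. The difference at 30 min was not tested, since each genotype has 1 comparison at that time. Over both times the limma adjusted p was 0.84 for the first 4 and 0.90 for Foxa1. The pattern was shown by 5 of 14 secretion probes and by 15.2% of all probes. With normexp and loess the Kcnn2 ratios at 30 min were 1.101-fold in WT mice and 0.914-fold in KO mice, and its difference over both times was -0.14 in place of -1.002. By the same method the WT and KO ratios at 30 min also came closer to 1 for Kcnma1 probe 2 (1.25-fold and 0.868-fold) and Foxa1 (1.03-fold and 0.797-fold). They changed little for Ano1 (1.24-fold and 0.66-fold) and Slc12a2 (1.30-fold and 0.58-fold).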

How the results depend on the processing

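No paired analysis was possible because the replicate numbers shared by the groups mark the 2 dye orientations of the same RNA pair, which were averaged to 1 replicate. The count of secretion probes past the fold and p thresholds stayed at 0 in all 4 comparisons under the other normalizations, centring, p rules, filters and spot handling. Leaving out 1 array of each pair gave counts from 0 to 1 in WT mice at 30 min and in KO mice at 30 min, in both through Kcnma1 probe 3, and 0 at 60 min. On the mean effect of PACAP it gave 1 secretion probe with either array left out, Cftr in both and with opposite signs, where 2118 and 2318 of all probes passed. Dye and PACAP cannot be told apart on a single array. All 8 RNA samples in 1 fit gave 2 secretion probes for KO against WT (Kcnn4 and Aqp5 probe 2) and 2 for 60 against 30 min (Foxa1 and Aqp5 probe 2), against 0 from the vehicle samples alone, by construction with more samples. The vehicle difference of Kcnma1 probe 2 between 60 and 30 min ranged from -0.032 to 0.55 over leaving out 1 array of each pair, negative without the arrays with PACAP in Cy3, and the cause was not tested. Of 336 member fold values under alternatives 20 lay on the other side of 1, at main values no further from 1 than 1.38-fold.

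Normexp and loess lowered the counts over all probes to 57, 170, 164 and 72 in WT mice at 30 and 60 min and in KO mice at 30 and 60 min, from 138, 273, 279 and 115. Without the p rule they were 222 in WT and 434 in KO mice at 30 min, and from 1 array they lay between 446 and 1197. For KO against WT in the PACAP effect, 17 of all probes passed with time as covariate, 170 without WT mice at 30 min and 83 without WT mice at 60 min, and 1 passed on the mean effect without WT mice at 30 min, with 0 secretion probes in each. Dim signals limit Kcnn2, Cftr, Chrm3 and Kcnma1 probes 3 and 4, which were not above background in both channels on every array.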
